A study of Caenorhabditis elegans with 2 samples.

Results

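Astacins are secreted or membrane-bound zinc metalloproteases, and Caenorhabditis elegans has an unusually large family of them, most of whose genes are named nas (nematode astacin). The members studied here were chosen by name: every protein-coding gene of the WBcel235 annotation whose symbol is nas- followed by a number, together with dpy-31, hch-1 and toh-1. This gave 40 genes with 39 symbols, since 2 gene identifiers carry the symbol nas-2, out of 19973 protein-coding genes. The RefSeq product names of all 39 symbols contain zinc metalloproteinase, though nas-21 is named a zinc metalloproteinase-like protein. RefSeq lists hch-1 as nas-34 and toh-1 as nas-26. Regions were credited to a gene when the summit lay in the gene body or up to 6000 bp upstream of its start.

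The cuticle of the worm is shed and rebuilt at each larval moult, and proteases act at several of these steps. NAS-36 and NAS-37 are needed for shedding the old cuticle, and DPY-31 cleaves the C-terminal end of the cuticle collagen SQT-3. HCH-1 acts in hatching, NAS-6 and NAS-7 in the making of the pharyngeal grinder, NAS-38 in sleep at the moult, and NAS-39 is the family's relative of the BMP1 and tolloid proteases. ELT-3 is a GATA factor of the hypodermis, the tissue that secretes the cuticle.

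The data are chromatin immunoprecipitation with sequencing of ELT-3 in whole worms at the second larval stage, in 1 group of 2 biological replicates. The worms were of the strain OP75, genotype unc-119(ed3) III; wgIs75, which stably expresses ELT-3 with a GFP-FLAG tag at its C-terminus, and both sexes were pooled. The promoter that drives the tagged protein and the separation of the cultures are not stated in the labels. Whole animals were used, so a region bound in a few cells and one bound weakly in many cells cannot be told apart. The deposited lists held 30000 regions per replicate and 30000 in the pooled list, and 33 pooled regions passed the irreproducible discovery rate (IDR) threshold. The lists of 30000 were deposited as peaks and background, the input for IDR. Of the pooled regions, 15 had an authors' q-value under 0.05. No control sample was analysed here, and the read depth is unknown.

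Regions were ranked in each list by the authors' signal value, where rank 1 is the highest, and the 1000 highest were called. A call is therefore a high rank and does not by itself show binding. The called pooled regions at toh-1 and nas-11, for example, had q-values of 0.739 and 0.793. The signal value has no stated scale, so it describes regions within 1 list. In every list all regions had a single length, with the summit at the middle. With 1 group no comparison between conditions exists, and genes are not replicates. Counts of astacin genes are therefore set beside the percentage of all protein-coding genes called by the same rule, without a test.

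nas-30 carried the highest region of the family in all 3 lists, and it was the only astacin gene with an IDR region. That region lay 5006 bp upstream, so windows reaching only 2000 or 1000 bp upstream do not hold it. With windows reaching 6000 bp upstream, the share of the family that was called in the pooled list was near that of all protein-coding genes. A region among the 1000 highest of the pooled list was present at 3 of 40 astacin genes (7.5%), against 8.23% of all protein-coding genes. The order turned with shorter windows: the family's 7.5% stood against 5% of all protein-coding genes with 2000 bp upstream and 4.07% with 1000 bp. When each region was credited to the nearest start alone, the values were 5% and 3.83%. In replicate 1 with the 6000 bp windows it was 6 of 40 (15%) against 8.4%, and in replicate 2 it was 4 of 40 (10%) against 7.97%. Only nas-30 was called in both replicates, which is 1 of 40 (2.5%) against 1.76%, and only there did the called regions have summits within 150 bp of each other (2.5% against 0.541%). An IDR region was present at 1 of 40 astacin genes (2.5%) and at 0.225% of all protein-coding genes. A percentage of 2.5 is a single gene in this family.

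**Figure D1:**
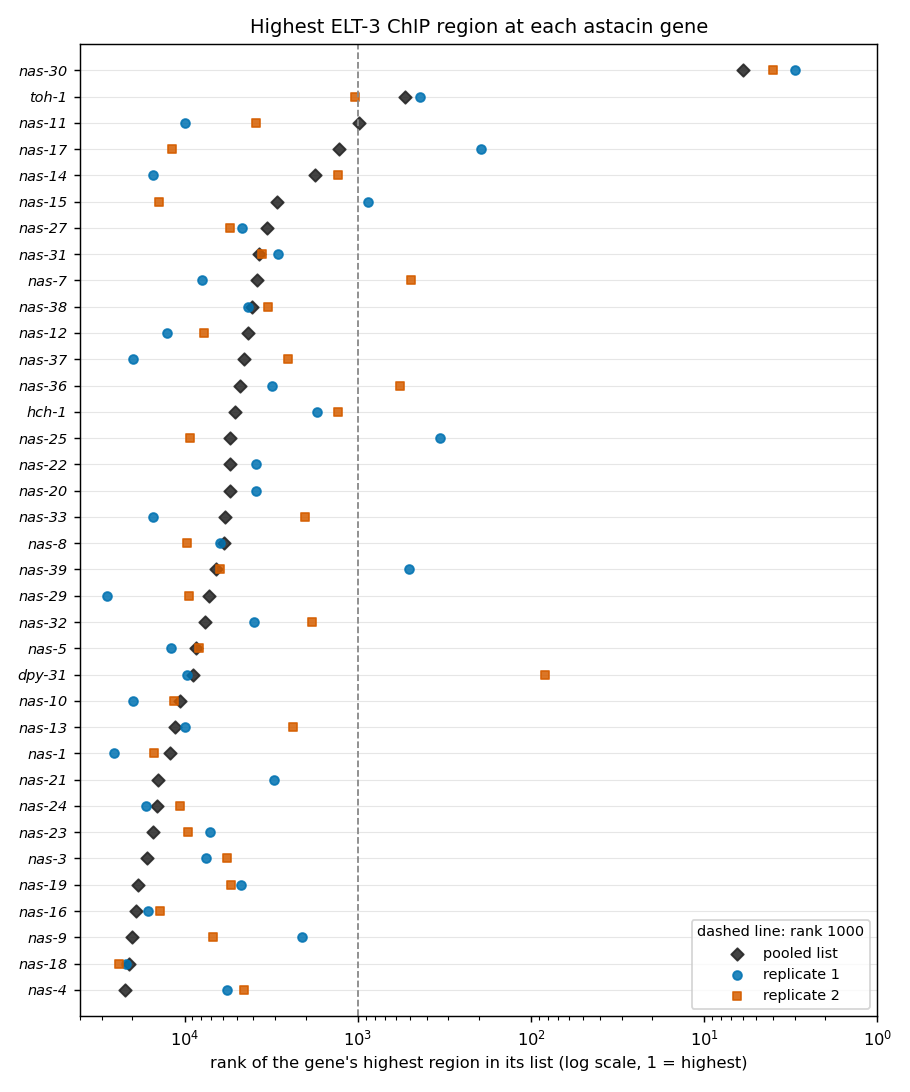
Rank of the highest region (horizontal axis, log scale, highest on the right) of the 36 astacin genes with at least 1 region, sorted by the pooled list, with 1 marker for each list and a dashed line at rank 1000. nas-30 lies at 6, 3 and 4, apart from all other members, and most other genes have markers far apart between replicates.

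Sequences of 4 regions at other members are given here from the RefSeq WBcel235 genome. Each is the 201 bases centred on a summit, on the plus strand of ce11, with the GATA sites in capitals. A GATA site here is A or T, then GATA, then A or G, searched on both strands; TGATAA is one of its forms. The region 2490 bp upstream of dpy-31 at chrIII:7199616-7199816, from replicate 2, is shown because it was the highest there outside nas-30 and holds 4 GATA sites, 2 of them TGATAA. The toh-1 region 837 bp upstream at chrIII:3809767-3809967, from the pooled list, and the nas-7 region 1683 bp upstream at chrII:7404308-7404508, from replicate 2, are intergenic regions with 0 GATA sites. The nas-17 region at chrV:11399872-11400072, from replicate 1, lies in a coding exon and holds 1 GATA site that is not TGATAA.
dpy-31: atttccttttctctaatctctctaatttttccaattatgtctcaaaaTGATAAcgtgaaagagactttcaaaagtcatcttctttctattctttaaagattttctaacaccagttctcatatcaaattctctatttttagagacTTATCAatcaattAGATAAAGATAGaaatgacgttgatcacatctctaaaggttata
toh-1: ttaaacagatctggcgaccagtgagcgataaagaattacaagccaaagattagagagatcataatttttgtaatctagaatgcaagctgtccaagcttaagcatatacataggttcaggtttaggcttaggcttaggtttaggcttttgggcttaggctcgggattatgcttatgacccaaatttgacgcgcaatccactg
nas-7: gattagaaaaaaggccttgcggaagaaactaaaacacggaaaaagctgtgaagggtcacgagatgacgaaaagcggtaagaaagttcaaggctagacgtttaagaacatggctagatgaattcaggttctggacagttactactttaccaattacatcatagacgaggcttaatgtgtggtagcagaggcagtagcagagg
nas-17: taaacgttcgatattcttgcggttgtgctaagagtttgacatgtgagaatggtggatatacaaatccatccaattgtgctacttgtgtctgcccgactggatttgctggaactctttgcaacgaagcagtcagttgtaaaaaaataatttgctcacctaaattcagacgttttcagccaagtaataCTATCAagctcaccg

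The gene nas-30 lies on the plus strand of chromosome I, from 938483 to 947710 in ce11. Its window of 15228 bp held 8 pooled regions, 10 regions of replicate 1 and 9 of replicate 2, and no window of another protein-coding gene held any of them. The IDR region, 5006 bp upstream in intergenic sequence, ranked 6 in the pooled list, 3 in replicate 1 and 4 in replicate 2. Its signal value was 37.2 in replicate 1, where the list's median was 9.85, and 41.4 in replicate 2, where the median was 9.53. Its authors' q-value was 0.0345 in the pooled list, 0.0698 in replicate 1 and 0.0345 in replicate 2. It held 1 TGATAA and 2 GATA sites in all within 100 bp of the summit.

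A second nas-30 region lay within the gene, in a coding exon 5790 bp downstream of the start. It ranked 40 in the pooled list, 686 in replicate 1 and 47 in replicate 2, with q-values of 0.215, 0.355 and 0.0538, and it held 0 GATA sites. An intronic region 2186 bp downstream of the start ranked 480 in the pooled list, 1102 in replicate 1 and 1689 in replicate 2. A further intronic region, 3329 bp downstream, ranked 1385, 1661 and 6401 in the same order. The replicates differed most at the region 3117 bp upstream, which ranked 116 in replicate 1 and 26639 in replicate 2. Of the 8 pooled nas-30 regions, 5 had a summit within 150 bp in both replicates, including all those just described. Across the family this was so for 23 of 114 pooled regions (20.2%), and for 24% of the whole pooled list.

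Among all protein-coding genes, 7 had a region ranked 10 or higher in every list. Besides nas-30 these were cest-16, lev-9 and mom-1, brc-1 and rpl-3, and ZK899.5. The first 3 had the same ranks in every list, as did brc-1 and rpl-3.

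nas-30 lies in a part of chromosome I where high regions were dense in both replicates. Its 0.5 Mb bin held 38 of the 1000 highest pooled regions, 34 of replicate 1's and 23 of replicate 2's, where the mean over 203 bins was 4.93. Bins with at least 3 times that mean in replicate 1 numbered 11, all on chromosome I, and the windows of nas-30 and nas-36 touched them. Of the 937 other protein-coding genes in these bins, 37.7% were called in the pooled list, 15% in both replicates and 3.95% at a shared summit, and 1.6% had an IDR region. Of the 18996 other genes elsewhere the same values were 6.78%, 1.1%, 0.368% and 0.153%. The bins were chosen by the density of called regions in replicate 1, so the higher shares in them were partly set by that choice. The part of this local density in the nas-30 ranks was not tested.

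**Figure D2:**
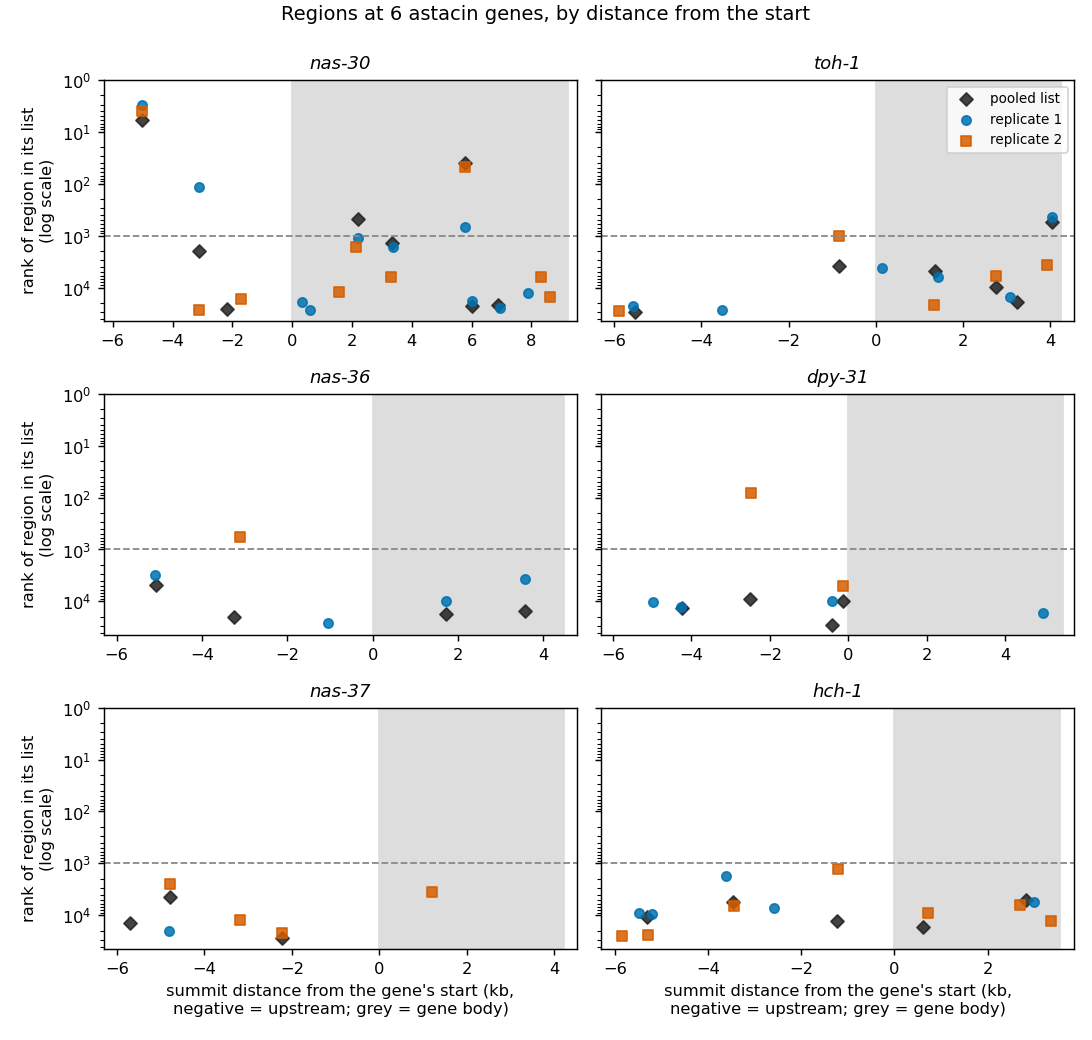
Rank of each region in its list (vertical axis, log scale, highest at the top) against the distance of the summit from the gene's start in kb, for 6 astacin genes, with the gene body in grey and a dashed line at rank 1000. At nas-30 the markers of the 3 lists lie close together near 5 kb upstream. Inside the gene some regions share positions but differ in rank, as at the exon region (40 pooled, 686 in replicate 1 and 47 in replicate 2). Other regions inside the gene are present in only 1 of the replicates. At the other 5 genes no region above the line is shared by both replicates.

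The moulting genes nas-36 and nas-37 had no called pooled region. nas-36, on the plus strand of chromosome I from 7527224 to 7531715, held 4 pooled regions, and the highest ranked 4793 with a signal value of 21.9. That region lay 5079 bp upstream in the 5′ UTR of goa-1, which encodes a G protein alpha subunit. The highest nas-36 rank was 3123 in replicate 1, at the same place, and 567 in replicate 2, in a coding exon of goa-1 3119 bp upstream of nas-36. Inside nas-36 itself the highest region ranked 3718 in replicate 1, and replicate 2 had none. All 4 pooled nas-36 regions held 0 GATA sites within 100 bp of the summit. The bin of nas-36 held 26 of the 1000 highest pooled regions.

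nas-37, on the minus strand of chromosome X from 9944844 to 9949063, held 3 pooled regions, 1 region of replicate 1 and 4 of replicate 2. The highest ranked 4507 in the pooled list, 19842 in replicate 1 and 2514 in replicate 2. It lay 4787 bp upstream in an intron of cysl-1, a gene of the cysteine synthase family, and held 0 GATA sites. The other pooled nas-37 regions did hold GATA sites, 6 at the region 5689 bp upstream and 1 TGATAA at the region 2224 bp upstream. In the gene body only replicate 2 had a region, in a coding exon, at rank 3524.

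dpy-31, the collagen protease gene on chromosome III from 7202206 to 7207664, was called in replicate 2 only. Its region 2490 bp upstream ranked 83 in replicate 2, with a signal value of 24.2 and a q-value of 0.0545. The same place ranked 8957 in the pooled list, and replicate 1 had no region there. The nearest start was that of pfd-5, a prefoldin gene, 832 bp away. Nearer to the start of dpy-31 itself, a region 139 bp upstream ranked 9967 in the pooled list, and a region 145 bp upstream ranked 4979 in replicate 2. The highest dpy-31 region in replicate 1, 428 bp upstream, ranked 9685.

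toh-1, on the minus strand of chromosome III from 3804772 to 3809030, was the member with the next-highest pooled region after nas-30. That region ranked 537 in the pooled list with a signal value of 30.8, 436 in replicate 1 and 3765 in replicate 2. It lay in the 3′ UTR of toh-1, and its nearest start was that of xbx-5, 519 bp away. The upstream region whose sequence is given above had its nearest start at toh-1 and ranked 3831 in the pooled list and 1033 in replicate 2, just beyond the 1000 called. Replicate 1 had no region there.

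hch-1, the hatching gene on the minus strand of chromosome X from 14696411 to 14699977, was called in no list. Its highest region ranked 5107 in the pooled list, 1714 in replicate 1 and 1308 in replicate 2, at 3 different places. The replicate 1 region lay 3608 bp upstream in the 3′ UTR of F40E10.5, and the replicate 2 region lay 1212 bp upstream between genes.

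The remaining called members were called in a single list each. nas-11, on chromosome X, had its only pooled region at rank 981, just inside the 1000 called, in a coding exon. The same place ranked 9999 in replicate 1 and 3876 in replicate 2. Replicate 1 alone called nas-17 at rank 194, nas-25 at 337, nas-39 at 507 and nas-15 at 872. The nas-17 and nas-15 regions lay in coding exons and the nas-39 region in an intron of that gene, while the nas-25 region lay in the 3′ UTR of F46C5.1, 5624 bp upstream of nas-25. At none of these 4 places did replicate 2 have a region within 150 bp. Replicate 2 alone called nas-7, at rank 492, besides nas-36 and dpy-31, and replicate 1 had no region at that nas-7 place.

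In all, 10 members were called in at least 1 list, of which 5 in replicate 1 and not in replicate 2, and 3 in replicate 2 and not in replicate 1. The shares of all protein-coding genes called in these ways are not given here, so these counts have no background beside them. For 6 of the 10 the nearest start to their highest called region was their own. At nas-36, dpy-31, toh-1 and nas-25 another gene's start was nearer. TGATAA lay within 100 bp of the summit at 3 of these 10 regions, those of nas-30, dpy-31 and nas-25.

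**Figure D3:**
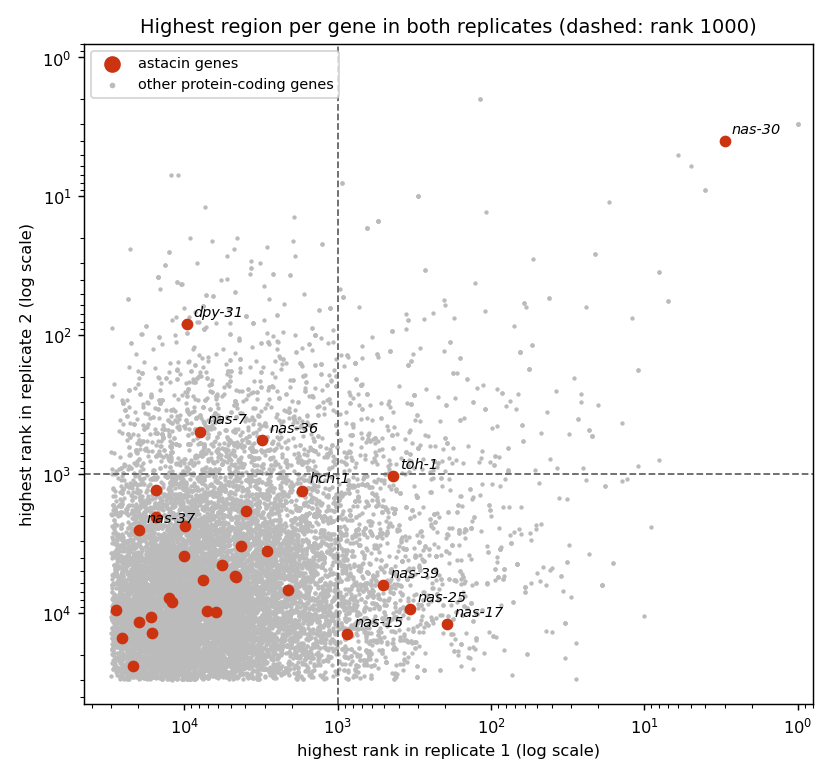
Highest rank per gene in replicate 1 (horizontal axis) and replicate 2 (vertical axis), both on log scales with the highest ranks at the top and right, for the 33 astacin genes (red) and 16893 other protein-coding genes (grey) with a region in both. nas-30 is the only red point above rank 1000 (dashed lines) in both replicates, the 8 members called in 1 replicate pass 1 line each, and nas-11, called in the pooled list alone, passes neither.

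Across the 33 members with a region in both replicates, Spearman's rho of the highest ranks was 0.29, and 0.23 without nas-30. Across 16893 other genes it was 0.21. These values are across genes, whose ranks also share the length of the window, and they describe the lists only.

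The other 30 members had no region among the 1000 highest of any list. The highest pooled ranks among them were 1759 at nas-14 and 3323 at nas-27, and the lowest were 22183 at nas-4 and 21051 at nas-18, with nas-9 at 20107. Among the genes with a described role, nas-38 had 5 pooled regions, of which the highest, in a coding exon 2198 bp downstream of its start, ranked 4092. The same place ranked 3292 in replicate 2, and replicate 1 had no region within 150 bp. The highest nas-38 region in replicate 1, 4776 bp downstream of the start, ranked 4299.

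Over all members with a region, the median highest rank was 5883 in the pooled list (36 genes), 5963.5 in replicate 1 (36 genes) and 5487 in replicate 2 (33 genes). For other protein-coding genes the medians were 7280, 7017 and 7287. The astacin windows were also longer, with a median of 8902 bp against 8025 bp, and held a median of 3 pooled regions against 2. Per length the values were 0.321 pooled regions per kb at astacin genes and 0.308 per kb at the others. In replicate 1 they were 0.353 against 0.308 and in replicate 2 they were 0.281 against 0.309, so the replicates went opposite ways. Up to rank 5000 in the pooled list, 32.5% of astacin genes and 33.8% of other genes had a region. In both replicates the order was the reverse, with 42.5% against 35.4% in replicate 1 and 37.5% against 33.7% in replicate 2.

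**Figure D4:**
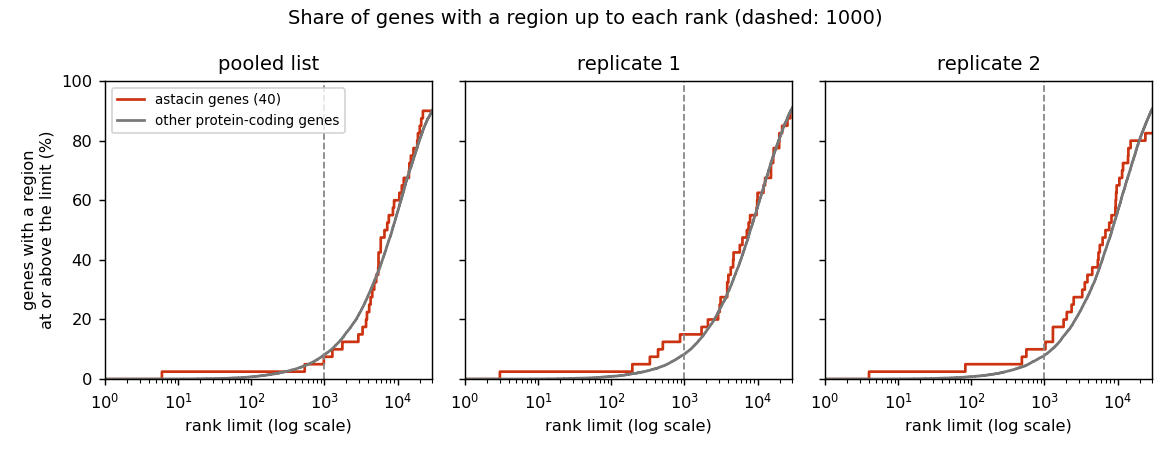
Percentage of genes with at least 1 region at or above each rank (horizontal axis, log scale) in the 3 lists, for the 40 astacin genes (red) and the other protein-coding genes (grey). The first red step in each panel is nas-30, and at rank 1000 the red steps stand at 7.5%, 15% and 10%, against 8.23%, 8.39% and 7.97% for the grey curves.

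No region in any list fell in the windows of 4 members (10%), against 2.74% of all protein-coding genes. These were both nas-2 genes, nas-6 and nas-28. The 2 nas-2 genes lie 107961 bp apart on chromosome V, and their windows of 7743 bp were identical in 100% of positions. Reads from identical copies cannot be assigned to 1 of them, and how the authors treated such reads is not given in the sources used here. nas-6, the grinder gene, is on the minus strand and starts 3050 bp from the end of chromosome IV, so its upstream window was 3050 bp long. The nearest pooled summit to the nas-28 window was 682 bp outside it. For the nas-6 window this distance was 13914 bp, and for the 2 nas-2 windows it was 98470 and 6895 bp. In replicate 2 alone, nas-20, nas-21 and nas-22, neighbours on chromosome V whose windows overlap, also had no region.

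By region, 5 of 114 pooled regions in astacin windows were among the 1000 highest (4.39%), against 3.31% of regions only in windows of other protein-coding genes. The values were 8 of 123 (6.5%) against 3.32% in replicate 1 and 5 of 104 (4.81%) against 3.31% in replicate 2. Of these 18 called regions over the 3 lists, 8 were at nas-30. Without the genes in the dense bins of chromosome I the pooled share was 1.96% in astacin windows, against 2.71% in windows of all protein-coding genes.

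Most astacin regions were shared with neighbouring genes: 93 of 114 pooled regions also lay in the window of another protein-coding gene, and for 59 (51.8%) the nearest start was the member's own. Coding exons held 42 of the pooled summits (36.8%), introns 36 (31.6%), sequence between genes 28 (24.6%), 3′ UTRs 6 and 5′ UTRs 2. From 1000 bp upstream to 200 bp downstream of the member's start lay 11 of the 114. Values of this sharing and of these positions for other genes are not given here, so none is shown to be particular to astacin genes. TGATAA was found within 100 bp of 24 pooled summits in astacin windows (21.1%), against 16.4% of the whole pooled list. This order also turned with shorter windows: the share was 13.9% with 2000 bp upstream and 12.7% with 1000 bp, against 16.3% and 16.1% in the same windows of all protein-coding genes. By nearest start it was 16.9% against 16.3%. With the 6000 bp windows, in replicate 1 it was 19.5% against 16.4%, and in replicate 2 it was 25% against 17.6%. The wider GATA site was found at 39.5% of pooled astacin regions and at 34.1% of the whole list.

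Lists of other genes, chosen by name, were counted by the same rule. Of 28 moulting genes, 9 were called in the pooled list (32.1%), against the 8.23% of all protein-coding genes given above. Their windows were long, with a median of 11215.5 bp and 5 pooled regions, and 3 of the 9 lay in the dense bins of chromosome I. Among the 9, let-4 and sym-1 had the same ranks in every list. In both replicates 4 of the 28 were called, against 1.76% of all protein-coding genes. Of these 4, lrp-1 and cpz-1 lay in the dense bins. At a shared summit 1 of the 28 was called, against 0.541% of all protein-coding genes. An IDR region was present at 0 of the 28, against 0.225%. The highest of the 28 were lrp-1, a megalin receptor gene, at pooled rank 102, and cpz-1, a cathepsin gene, at 179. Next came noah-2, which encodes an apical matrix protein, at 200, and nhr-23, a nuclear receptor gene of the moulting cycle, at 244. Of 11 genes of collagen processing and cuticle cross-linking, 3 were called in the pooled list (27.3%), against 8.23% of all protein-coding genes. The windows of the 11 had a median of 9658 bp and 4 pooled regions. The 3 called were phy-2 (pooled rank 478), bli-4 (583) and pdi-2 (908). They encode a prolyl hydroxylase subunit, a proprotein convertase and a protein disulfide isomerase. In both replicates 0 of the 11 were called, against 1.76% of all protein-coding genes. In replicates 1 and 2, phy-2 ranked 712 and 6188, bli-4 ranked 4851 and 1366, and pdi-2 ranked 12127 and 695. The oxidase gene bli-3 ranked 39 in replicate 2, 5312 in replicate 1 and 1376 in the pooled list. sqt-3, the collagen cleaved by DPY-31, was called in no list.

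Of 38 other extracellular metalloprotease genes, 4 were called in the pooled list (10.5%), near the 8.23% of all protein-coding genes. In both replicates 0 of the 38 were called, against 1.76%. The windows of the 38 had a median of 10163 bp and 4 pooled regions. The 4 called in the pooled list were nep-11 (rank 97), adt-3 (809), nep-3 (931) and nep-2 (982), of the neprilysin and ADAMTS families. Of 2 metalloprotease inhibitor genes, 0 were called in the pooled list, and timp-1 ranked 180 in replicate 1, 3234 in replicate 2 and 1986 in the pooled list.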

How the data were processed

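The regions came from chromatin immunoprecipitation of tagged ELT-3 in 2 replicates. The authors deposited lists in ce10 and ce11, and the ce11 lists were used. Per the deposited file listing, each list was called against 1 control alignment, and the IDR list was derived from the other 3. The deposited signal value is a score relative to the control on an unstated scale. The deposited q-value is given as −log10 of q. The sources used here name no aligner, peak caller or IDR cutoff, and depth is unknown. The deposited summit offset was 175 bp in the pooled list, 178 in replicate 1 and 185 in replicate 2, the same in every region.

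Gene models came from Ensembl release 115 (WBcel235, ce11 coordinates). Windows were the gene body and 6000 bp upstream, ending at the chromosome end. Genes with a region among the 1000 highest were called; summits within 150 bp were shared. No significance test was made. Members and lists were chosen with earlier results of these data known. Singly named were nas-30, nas-36, nas-37, dpy-31, hch-1 and toh-1, members called in any list or with an IDR region or no region, the 3 best and 3 worst by pooled rank, and up to 4 called members of each other list. nas-14, nas-27, nas-38 and sqt-3 were chosen once their values were known. The listed symbol tag-225 was not in the annotation. The sequence of 1 further region is not reported here. Assignment, ranking and motif counting were tested on simulated data. Python 3.11.15, numpy 2.4.6, pandas 2.3.3, scipy 1.17.1 and matplotlib 3.10.9 were used.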

Additional observations from a re-analysis of the deposited data

How the results depend on the processing

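Of 56 alternatives over 6 values, 27 left the value within 1.5 times the count, or within 1 SD of the replicates for shares and medians; the cause of the other changes was not tested unless given. Called pooled genes numbered 1 with 500 highest regions (2.5% against 4.2% of all genes), 5 with 2000 (12.5% against 15.7%), 3 with 2000 or 1000 bp upstream (7.5% against 5% and 4.07%), 2 by nearest start (5% against 3.83%), and 4 to 6 with 1 replicate left out. Genes called in both replicates numbered 3 with 2000 regions and 0 without the dense bins, which removes nas-30. With 1 replicate left out, the count was that of the replicate kept, 4 without replicate 1 and 6 without replicate 2. At a shared summit the count was 0 without the dense bins and 1 to 2 with 1 replicate left out. The called share of regions in astacin windows, against those of all genes, was 2.63% against 1.66% with 500 regions, 7.02% against 6.65% with 2000, 5.56% against 3.36% with 2000 bp upstream, 6.35% against 3.33% with 1000 bp, 6.78% against 3.24% by nearest start, 1.96% against 2.71% without the dense bins and 4.81 to 6.5% with 1 replicate left out. The median pooled rank was 7408 with 2000 or 1000 bp upstream (all genes 9625 and 10316.5), 7227 by nearest start (10409.5), 5391 by q-value (7277.5), 6255.5 without the dense bins (7598) and 5487 to 5963.5 with 1 replicate left out. TGATAA was at 13.9% of regions against 16.3% with 2000 bp upstream, 12.7% against 16.1% with 1000 bp, 16.9% against 16.3% by nearest start, 14% against 8.35% within 50 bp, 36% against 30.4% within 200 bp and 19.5 to 25% with 1 replicate left out. Other motifs gave 39.5% against 34% for WGATAR and 50% against 41.4% for HGATAR, which allows A, C or T first. No paired analysis was possible because there is 1 group. Depth is unknown, so a region missing from a list is not shown to be unbound.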
